A study of Nasonia vitripennis with 6 samples.

Results

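Embryos of the parasitoid wasp *Nasonia vitripennis* in which bone morphogenetic protein (BMP) signaling was knocked down were compared with embryos of water-injected mothers, across all loci of the deposited table. The comparison used 4 of the 6 libraries of the series as its groups, chosen by their sample labels. The BMP group joined 1 library from mothers injected with *dpp* dsRNA and 1 from mothers injected with *gbb1* dsRNA, and the water group held 2 libraries. The other 2 libraries came from *Toll* knockdown embryos, for which the study used 2 dsRNAs from separate parts of the gene. These Toll libraries entered the filter, the scaling and the estimate of the spread. Some of their values are set beside those of the BMP group. By the numbers in their titles, the *dpp* library shares its number with Toll replicate 1 and the *gbb1* library with Toll replicate 2. In parental RNA interference (pRNAi), dsRNA is injected into female pupae and the transcripts of their offspring are measured. All libraries were made from pooled late blastoderm embryos collected 4 to 7 h after egg lay, and the labels name no difference between the groups other than what the mothers received. Each ligand had 1 library, so the ligands have no replicate of their own, and the spread within the BMP group includes any difference between them.

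BMP ligands are secreted proteins that bind paired type I and type II receptors, which phosphorylate Smad transcription factors. In insect embryos high BMP activity marks the dorsal side, where it promotes the extraembryonic serosa or amnioserosa and the dorsal ectoderm, while low activity permits neural ectoderm. In *Nasonia* BMP signaling patterns most of the dorsoventral axis, with Toll acting from the ventral side.

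The table held expected fragment counts and FPKM (fragments scaled by transcript length and library size) for 20033 loci, and 10241 passed the filter on low counts and were tested. Between 22754267 and 30590172 fragments were assigned per library. By edgeR's quasi-likelihood test with Benjamini-Hochberg adjustment, 357 loci (3.49%) were lower and 211 (2.06%) higher in the BMP libraries, at an adjusted p below 0.05. With a change above 1.5-fold and over 3 FPKM in water also required, 150 (1.46%) were lower and 52 (0.508%) higher. These totals moved with the libraries in the fit. With only the BMP and water libraries, 136 were lower (1.35%) and 26 higher (0.258%). Leaving out the *dpp* library gave 236 lower and 74 higher, and leaving out the *gbb1* library gave 1401 and 1227. Without water replicate 1 there were 135 and 17, and without water replicate 2 there were 84 and 6. Without Toll replicate 1 there were 145 and 29, and without Toll replicate 2 there were 148 and 30. The 2 groups share no library number in their titles, so a batch of the water pools and the knockdown cannot be told apart.

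**Figure D1:**
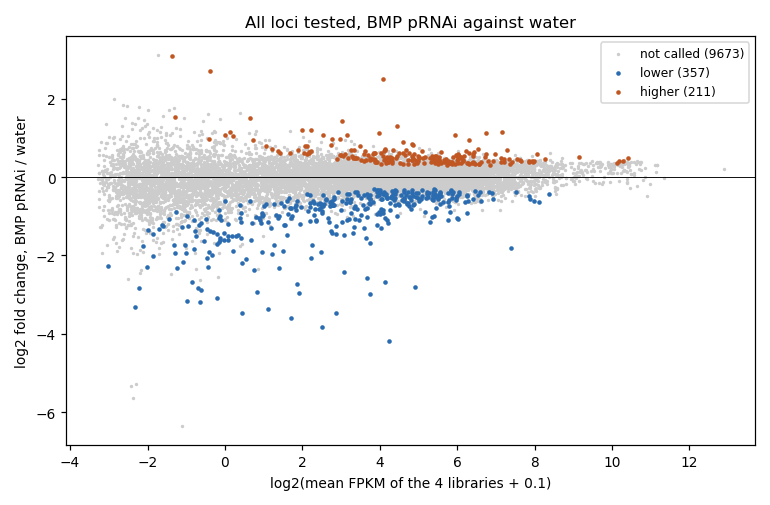
Log2 fold change of BMP pRNAi over water (vertical axis) against the log2 mean FPKM of the 4 libraries plus 0.1 (horizontal axis), 1 point per locus tested, with 357 loci lower in blue and 211 higher in orange. The lower loci reach larger changes: 131 of them and 18 of the higher loci changed by over 2-fold.

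The change was asymmetric in size. Among the 357 lower loci the median log2 fold change was -0.75, and 34 fell by over 4-fold. Among the 211 higher loci the median was 0.49, and 3 rose by over 4-fold. All 357 lower loci lay below the mean of water in both ligand libraries, and all 211 higher loci lay above it in both, which the selection by the test favors. FPKM of the BMP and water libraries did not overlap in 355 of the lower and 211 of the higher loci, where 25.7% of all loci tested were lower and 33.4% higher without overlap.

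The targeted gene *Nv-dpp*, which encodes the ligand Decapentaplegic, was measured at 18.1 and 17.0 FPKM in the water libraries, at 7.03 FPKM after *dpp* pRNAi and at 12.7 FPKM after *gbb1* pRNAi. Both BMP libraries lay below both water libraries, and the *dpp* library was the lowest. The log2 fold change was -0.66 ± 0.17 (SE) and its adjusted p was 0.0567, so it did not pass the threshold. On its own the *dpp* library was at -0.96 on the log2 scale against the mean of water and the *gbb1* library at -0.41. The adjusted p was 0.00258 with DESeq2 and 0.122 with only the BMP and water libraries. The *gbb* gene could not be paired with a locus, and its knockdown was not analysed here.

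Over all loci tested, 3.49% were lower and 2.06% higher. Among 14 BMP pathway genes looked for, 6 could be paired with a tested locus, and 5 of these were lower and 0 higher. They were paired through a table that lists changed loci first, so the share is no estimate for the pathway. *Nv-punt*, a type II receptor, was at 13.2 and 12.9 FPKM in water, 1.82 FPKM after *dpp* pRNAi and 0.641 FPKM after *gbb1* pRNAi. Its log2 fold change was -3.47 ± 0.32 (SE), with an adjusted p of 0.00109. *Nv-cv2*, encoding the extracellular BMP modulator Crossveinless 2, was at 4.14 and 3.43 FPKM in water and at 0.399 and 0.315 FPKM in the *dpp* and *gbb1* libraries. It changed by -3.38 ± 0.16 (SE) on the log2 scale, with an adjusted p of 2.15e-05. In both genes each water library lay far above each BMP library.

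*Nv-tsg2*, a paralog of the secreted modulator *twisted gastrulation*, was at 53.4 and 53.9 FPKM in water and at 26.2 and 23.5 FPKM in the *dpp* and *gbb1* libraries. Its log2 fold change was -1.15 ± 0.08 (SE), with an adjusted p of 0.000225. *Nv-ltl*, an ortholog of the fly extracellular regulator *larval translucida*, fell from 6.13 and 6.50 FPKM to 3.27 and 3.36 FPKM, a log2 fold change of -0.97 ± 0.09 (SE) with an adjusted p of 0.0012. The smallest called change was that of *Nv-mad2*, a homolog of the Smad gene *Mothers against dpp*. It was at 11.8 and 12.7 FPKM in water and at 9.23 and 9.27 FPKM in the BMP libraries, a log2 fold change of -0.45 ± 0.09 (SE) with an adjusted p of 0.03. This call was lost with only the BMP and water libraries, at an adjusted p of 0.0971. It was also lost without the *dpp* library (0.0617), without water replicate 1 (0.0798) or 2 (0.214) and without Toll replicate 1 (0.094) or 2 (0.0916), all as adjusted p.

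**Figure D2:**
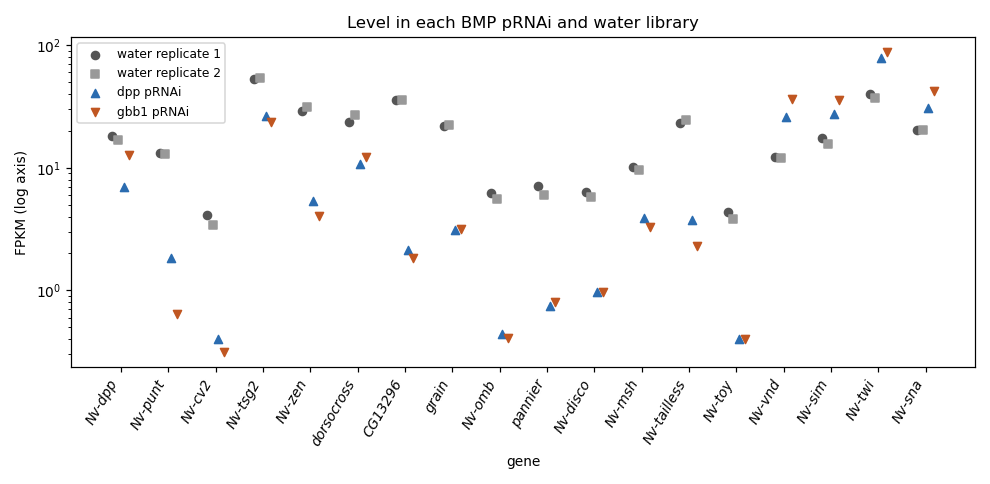
FPKM on a log axis of 18 genes in each library, with circles and squares for water replicates 1 and 2 and triangles for the *dpp* (up) and *gbb1* (down) libraries. From *Nv-dpp* to *Nv-toy* both BMP libraries lie below both water libraries, and from *Nv-vnd* to *Nv-sna* they lie above.

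Genes of the pattern classes below were classed by the study from in situ hybridization, after they had been selected on these same libraries. Their direction is therefore not independent evidence, and their counts are a description. For comparison with each class count, 3.49% of all loci tested were lower and 2.06% higher. Of 31 genes expressed on the dorsal side in the presumptive serosa, 28 could be tested, and 26 were lower and 0 higher. The class had a median log2 fold change of -1.47, beside 0.01 over all loci tested. With only the BMP and water libraries 24 were lower. In these pooled embryos, fewer cells of a type and less RNA per cell cannot be told apart.

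*Nv-zen*, a homeobox gene that marks the serosa, was at 28.9 and 31.1 FPKM in water, 5.36 FPKM after *dpp* pRNAi and 4.01 FPKM after *gbb1* pRNAi. Its log2 fold change was -2.67 ± 0.13 (SE), with an adjusted p of 3.1e-05. The T-box gene *dorsocross* was less affected: it was at 23.6 and 27.0 FPKM in water and at 10.7 and 12.4 FPKM in the *dpp* and *gbb1* libraries, a log2 fold change of -1.17 ± 0.10 (SE) with an adjusted p of 0.000738. The largest change of the class was that of the *CG13296* homolog, annotated as a transcription factor gene. It was at 36.0 and 35.5 FPKM in water and at 2.13 and 1.83 FPKM in the BMP libraries, a log2 fold change of -4.20 ± 0.16 (SE) with an adjusted p of 5.18e-06. The locus spans positions 1956788 to 1958007 of scaffold 21 of assembly 1.0.

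The other transcription regulators of the serosa class also fell. The GATA factor gene *grain* was at 22.03 and 22.3 FPKM in water and at 3.13 and 3.17 FPKM in the BMP libraries (log2 fold change -2.58 ± 0.09 SE, adjusted p = 5.18e-06), at a locus that holds 2 gene identifiers. *creb-A* was at 9.71 and 11.2 FPKM in water and at 4.01 and 3.80 FPKM in the BMP libraries (log2 fold change -1.45 ± 0.10 SE, adjusted p = 0.000241). *Nv-yorkie*, the co-activator of the Hippo pathway, was at 21.7 and 21.2 FPKM in water and at 8.12 and 9.31 FPKM in the BMP libraries (log2 fold change -1.23 ± 0.10 SE, adjusted p = 0.000429). *Nv-CG11966*, counted in both the serosa and the broad lateral class, fell least of these regulators. It was at 33.4 and 30.7 FPKM in water and at 18.8 and 21.6 FPKM in the BMP libraries (log2 fold change -0.69 ± 0.11 SE, adjusted p = 0.0127). In each of these genes the BMP libraries lay close together and apart from water.

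Signaling and membrane genes of the class fell as well. *Nv-uif*, the homolog of the fly Notch pathway regulator *uninflatable*, was at 13.7 and 14.1 FPKM in water and at 2.50 and 2.79 FPKM in the BMP libraries (log2 fold change -2.42 ± 0.09 SE, adjusted p = 5.18e-06). *Nv-semaphorin*, of a family of guidance ligands, was at 24.4 and 21.996 FPKM in water and at 8.35 and 9.99 FPKM in the BMP libraries (log2 fold change -1.30 ± 0.12 SE, adjusted p = 0.0012). *Nv-mucin68d* was at 10.9 and 9.78 FPKM in water and at 1.003 and 0.457 FPKM in the BMP libraries (log2 fold change -3.83 ± 0.30 SE, adjusted p = 0.000387). The serosa genes that did not pass were *Nv-wee1*, a cell cycle kinase, with a log2 fold change of -0.26 ± 0.13 (SE) and an adjusted p of 0.199, and Nasvi2EG019528, with -0.83 ± 0.26 (SE) and 0.0822. In Nasvi2EG019528 the ligand libraries stood apart, at 49.7 FPKM after *dpp* pRNAi and 95.4 FPKM after *gbb1* pRNAi, beside 131.3 and 122.8 FPKM in water.

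Of 8 dorsolateral genes, all 8 were tested and lower, with a median log2 fold change of -2.23, and 7 were lower with only the BMP and water libraries. *Nv-omb*, the T-box gene *optomotor-blind*, was at 6.20 and 5.56 FPKM in water and at 0.442 and 0.407 FPKM in the *dpp* and *gbb1* libraries. Its log2 fold change was -3.60 ± 0.12 (SE), with an adjusted p of 5.18e-06, and its locus spans positions 2061061 to 2130281 of scaffold 18. The GATA factor gene *pannier* was at 7.14 and 5.95 FPKM in water and at 0.742 and 0.81 FPKM in the BMP libraries (log2 fold change -2.95 ± 0.13 SE, adjusted p = 1.95e-05). In the fly embryo *pannier* is a dorsal target of Dpp. In both genes each BMP library lay below each water library.

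*Nv-disco*, a zinc finger gene, was at 6.35 and 5.83 FPKM in water and at 0.963 and 0.962 FPKM in the BMP libraries (log2 fold change -2.72 ± 0.16 SE, adjusted p = 8.67e-05). The LIM homeobox gene *tailup* was at 3.66 and 3.63 FPKM in water and at 0.939 and 1.08 FPKM in the BMP libraries (log2 fold change -1.75 ± 0.14 SE, adjusted p = 0.000524). *Nv-msh*, a homeobox gene that marks dorsal neuroectoderm in the fly, changed less, from 10.1 and 9.56 FPKM to 3.87 and 3.30 FPKM (log2 fold change -1.42 ± 0.11 SE, adjusted p = 0.000429). The smallest change was that of the ankyrin gene Nasvi2EG001522, at -1.07 ± 0.18 (SE) with an adjusted p of 0.0177, and it was the dorsolateral call lost with only the BMP and water libraries, at an adjusted p of 0.0582. Its adjusted p was 0.0567 without water replicate 1, 0.15 without water replicate 2 and 0.0508 without Toll replicate 1. The class of broad dorsal genes held *Nv-tsg2* and Nasvi2EG029763, and the latter was at 48.8 and 12.4 FPKM in water and at 22.2 and 75.2 FPKM in the BMP libraries. Its groups overlapped and its adjusted p was 0.523.

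**Figure D3:**
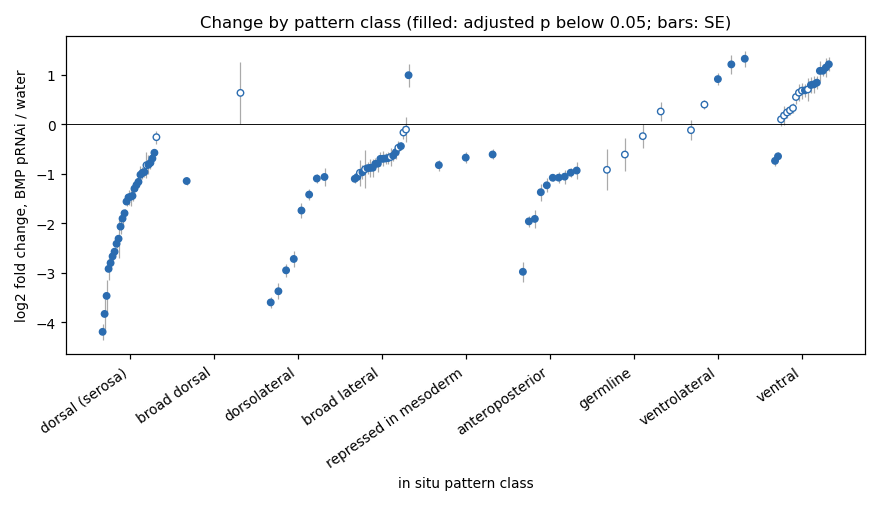
Log2 fold change of BMP pRNAi over water for each tested gene of the in situ pattern classes, ordered by size within a class, with bars for the SE and filled points for an adjusted p below 0.05. All 8 dorsolateral and all 10 anteroposterior genes are filled and below 0, and the 19 ventral genes reach from -0.74 to 1.21.

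Genes patterned along the anteroposterior axis also fell. All 10 were tested and lower, with a median log2 fold change of -1.16, and all 10 were lower with only the BMP and water libraries. *Nv-tailless*, a nuclear receptor gene that patterns the poles of the embryo, was at 23.1 and 24.7 FPKM in water and at 3.74 and 2.29 FPKM in the *dpp* and *gbb1* libraries. Its log2 fold change was -2.98 ± 0.21 (SE), with an adjusted p of 0.000229. *Nv-toy*, an ortholog of the Pax6 gene *twin of eyeless*, was at 4.34 and 3.82 FPKM in water and at 0.404 and 0.399 FPKM in the BMP libraries (log2 fold change -1.96 ± 0.11 SE, adjusted p = 8.26e-05). The falls of *Nv-toy*, *Nv-homeobrain* and, in the *dpp* library, *Nv-dpp* were larger in FPKM than in fragments per locus, and the causes were not tested.

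Both *orthodenticle* loci, head homeobox genes, fell by different amounts. Nasvi2EG014291 was at 9.33 and 7.95 FPKM in water and at 2.56 and 1.98 FPKM in the BMP libraries (log2 fold change -1.91 ± 0.18 SE, adjusted p = 0.00118). Nasvi2EG014289 was at 75.8 and 73.7 FPKM in water and at 35.8 and 33.2 FPKM in the BMP libraries (log2 fold change -1.08 ± 0.07 SE, adjusted p = 0.000225). *Nv-homeobrain*, a homeobox gene of the anterior, was at 61.6 and 58.9 FPKM in water and at 26.0 and 22.2 FPKM in the BMP libraries (log2 fold change -0.98 ± 0.09 SE, adjusted p = 0.000738). The zinc finger genes *Nv-lola* (log2 fold change -1.24 ± 0.15 SE, adjusted p = 0.00375) and *Nv-rotund* (-1.06 ± 0.14 SE, adjusted p = 0.00675) were lower too, and *Nv-rotund* had an adjusted p of 0.0503 without water replicate 1. In *Toll* knockdown embryos, compared with the same water libraries, *Nv-homeobrain* had a log2 fold change of -0.46, *Nv-tailless* of -0.18 and *Nv-toy* of 1.35.

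Laterally expressed genes fell by less. Of 22 broad lateral genes, 15 were lower and 1 higher, with a range of log2 fold changes from -1.11 to 0.99, and 6 were lower with only the BMP and water libraries. Without either water replicate, 3 broad lateral genes were lower, and without either Toll replicate 8. All 3 genes of the class repressed only in the mesoderm were lower, from -0.83 to -0.61. On the ventral side, 8 of 19 tested genes were higher and 2 lower, and 3 of 5 ventrolateral genes were higher and 0 lower. Over all loci tested, 3.49% were lower and 2.06% higher. Without either water replicate, 2 ventral genes were higher. The mesoderm gene *Nv-twi* was at 40.3 and 37.0 FPKM in water and at 79.0 and 87.8 FPKM in the BMP libraries, a log2 fold change of 1.07 ± 0.20 (SE) with an adjusted p of 0.0259. This call was kept with only the BMP and water libraries (adjusted p = 0.0041) and lost with DESeq2 (adjusted p = 0.0808). It was also lost without water replicate 1 (log2 fold change 1.15) and without water replicate 2 (1.01). *Nv-sna*, *Nv-sim* and *Nv-vnd*, which mark mesoderm, mesectoderm and ventral neuroectoderm, had log2 fold changes of 0.84, 0.91 and 1.32, with adjusted p of 0.0106, 0.00675 and 0.00469. Without water replicate 2 these were 0.106, 0.0917 and 0.0661, and *Nv-sna* was at 0.0744 without water replicate 1. In the 4 germline genes tested, 0 were lower and 0 higher. Nasvi2EG008141 of that list was at 18.2 and 41.7 FPKM in water and at 22.3 and 10.1 FPKM in the BMP libraries, and the part of germ cell content in other results was not tested.

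Genes with an ankyrin domain form a family for which the division of fragments between similar copies makes values uncertain. Of the 10 in the pattern classes, 7 were lower and 0 higher, with a median log2 fold change of -0.96. Over all loci tested, 3.49% were lower and 2.06% higher. Of the 102 tested loci with a pattern class, 65 were lower and 12 higher. Among these, 24 of 35 transcription factor genes were lower and 7 higher, and of 14 genes annotated as unique to *Nasonia*, 7 were lower and 0 higher.

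A list of genes with dorsoventral expression in the fly was compiled from fly data. Its 212 *Nasonia* ortholog identifiers led to only 29 loci that could be paired and tested. Of 12 loci whose fly orthologs are expressed in extraembryonic tissue or dorsal ectoderm, 6 were lower and 0 higher. The lower loci include *Nv-omb*, which the list pairs with the fly *dorsocross* genes *Doc1*, *Doc2* and *Doc3*. The *dorsocross* gene of the serosa class is another locus. Of 7 with fly expression in the mesoderm, 5 were higher and 1 lower, and the lower gene was *Nv-ltl*, which is a serosa gene in *Nasonia*. Of 4 with fly expression in the ectoderm, 4 were lower. Of 3 with fly expression in the ventral ectoderm, *Nv-vnd* and *Nv-sim* were higher, and Nasvi2EG005518, paired with the fly gene *noc*, was lower (log2 fold change -0.46 ± 0.10 SE, adjusted p = 0.0447). Over all loci tested, 3.49% were lower and 2.06% higher. The 6 lower extraembryonic or dorsal ectoderm loci and the 5 higher mesoderm loci are all members of pattern classes already counted. Those classes were selected on these libraries. The pairing also favors changed loci, so the shares of the fly list are a description.

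The 10 loci with the largest falls, chosen by a rule on fold change, level and separation of the libraries, were in order *CG13296*, *Nv-mucin68d*, *Nv-omb*, *Nv-punt*, *Nv-cv2*, *Nv-tailless*, *pannier*, Nasvi2EG000051, *Nv-disco* and *Nv-zen*. All 10 belong to the dorsal, dorsolateral or anteroposterior classes, which were themselves selected on these libraries. The 10 largest rises were smaller, with log2 fold changes from 1.07 to 2.51, and included *Nv-vnd*, *Nv-six4*, *Nv-vvl*, *Nv-TollC*, *Nv-stumps* and *Nv-twi*. The call of *Nv-vvl* was lost without water replicate 1 (log2 fold change 1.28) or 2 (1.14). That of *Nv-TollC* was lost likewise (1.19 and 1.10), and with DESeq2 (adjusted p = 0.0691). With only the BMP and water libraries both calls were kept, at adjusted p of 0.0326 for *Nv-vvl* and 0.0032 for *Nv-TollC*. The largest rise was that of Nasvi2EG006445, at 4.77 and 5.06 FPKM in water and 31.8 and 25.2 FPKM in the BMP libraries (log2 fold change 2.51 ± 0.15 SE, adjusted p = 0.000129). Nasvi2EG000412 followed, at 4.13 and 4.30 FPKM in water and 14.7 and 8.80 FPKM in the BMP libraries (log2 fold change 1.43 ± 0.21 SE, adjusted p = 0.0108), and its adjusted p was 0.0768 without water replicate 1 and 0.107 without water replicate 2. Nasvi2EG000718 was at 72.7 and 57.7 FPKM in water and at 153.7 and 144.8 FPKM in the BMP libraries (log2 fold change 1.14 ± 0.11 SE, adjusted p = 0.00143). Nasvi2EG010527 was at 75.8 and 98.2 FPKM in water and at 238.4 and 158.1 FPKM in the BMP libraries (log2 fold change 1.16 ± 0.19 SE, adjusted p = 0.0159), and its adjusted p was 0.0834 without water replicate 1 and 0.062 without water replicate 2. None of these 4 loci has a pattern class. The ranking kept only loci without overlap of the BMP and water libraries, so their separation follows from the rule. After *Toll* pRNAi, against the same water libraries, the log2 fold change was 1.88 for Nasvi2EG006445 (adjusted p = 0.00131), 1.17 for Nasvi2EG000412 (adjusted p = 0.0321), 0.58 for Nasvi2EG000718 (adjusted p = 0.0354) and -0.03 for Nasvi2EG010527 (adjusted p = 0.952).

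The ligand libraries were then set beside each other, as a description with no test, since each ligand has 1 library. Over all loci tested, 398 differed by over 2-fold between the *dpp* and *gbb1* libraries, beside 316 between the water libraries and 237 between the Toll libraries. Among 6827 loci above 3 FPKM in water, 34 differed by over 2-fold between the ligand libraries, 34 between the water libraries and 8 between the Toll libraries. The SD of the log2 ratio over these loci was 0.264 for the ligands, 0.216 for water and 0.145 for Toll. At 1.5-fold these counts were 210 for the ligands, 130 for water and 32 for Toll. The ligand pair thus differed by more than the water pair over all loci and at 1.5-fold, and by as many loci past 2-fold above 3 FPKM.

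For the serosa class the median log2 ratio to water was -1.44 in the *dpp* library and -1.53 in the *gbb1* library, and for the dorsolateral class -2.19 and -2.27. The *dpp* library was the lower of the pair in 14 of 28 serosa genes and 3 of 8 dorsolateral genes. In other classes 1 library was more often the lower. It was the *dpp* library in 16 of 22 broad lateral, 13 of 19 ventral, 5 of 5 ventrolateral and 3 of 3 mesoderm-repressed genes. It was the *gbb1* library in 9 of 10 ankyrin, 7 of 10 anteroposterior and 4 of 4 germline genes. Each ligand has 1 library with its own title number, so ligand and number cannot be told apart for any list. Between the Toll libraries, the one that shares its number with the *gbb1* library was the lower in 8 of 10 ankyrin genes. That was not particular to ankyrin genes: it was also the lower in 22 of 28 serosa and 8 of 10 anteroposterior genes. It was the lower in 2 of 8 dorsolateral genes and in 5184 of 10241 loci tested. The Toll library that shares its number with the *dpp* library was the lower in 7 of 22 broad lateral, 7 of 19 ventral and 2 of 3 mesoderm-repressed genes. The Toll libraries also differ in their dsRNA, so these counts cannot separate number from dsRNA. Ventral genes had a median log2 fold change of -2.02 after *Toll* pRNAi. For broad lateral genes the median log2 ratio was -0.81 after *dpp* and -0.57 after *gbb1* pRNAi, and for ventral genes it was 0.41 and 0.81. Over all loci tested the *dpp* library was the lower in 5011 of 10241. The change from water was larger in the *dpp* library at 251 of the 357 lower and 154 of the 211 higher loci. Of the 398 loci past 2-fold between the ligand libraries, 308 were higher in *gbb1* and 90 in *dpp*. Above 3 FPKM in water these counts were 18 and 16.

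**Figure D4:**
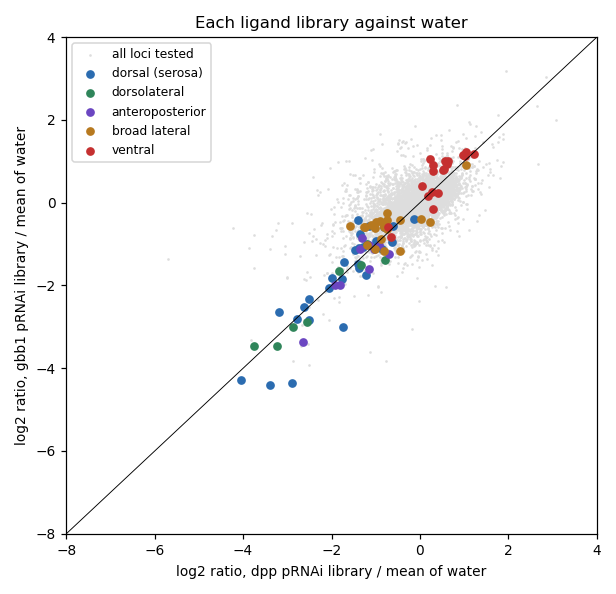
Log2 ratio to the mean of the water libraries in the *gbb1* library (vertical axis) against that in the *dpp* library (horizontal axis), 1 point per locus, with the line of equal ratios. Serosa, dorsolateral and anteroposterior genes lie along the line below 0, with *Nv-punt* at -2.88 for *dpp* and -4.35 for *gbb1*.

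Single genes differed between the ligands. The log2 ratio of *Nv-punt* to water was -2.88 in the *dpp* library and -4.35 in the *gbb1* library, and that of *Nv-mucin68d* was -3.39 and -4.40. Among loci above 10 FPKM in the higher library, the largest ratio was that of XLOC_004564. It has no paired gene identifier, so whether it is the targeted *gbb* gene itself was not tested. It was at 1.40 FPKM after *gbb1* pRNAi, 10.6 FPKM after *dpp* pRNAi, 11.4 and 11.9 FPKM in water and 10.4 and 10.8 FPKM after *Toll* pRNAi. The *gbb1* library was thus far below the other 5 libraries. The other 4 loci ranked on this side had log2 differences between the libraries from 0.94 to 1.12. In the opposite direction the 5 loci with the largest ratios, led by XLOC_005104, were higher in the *gbb1* library. XLOC_005104 was at 653.0 FPKM there, at 165.5 FPKM after *dpp* pRNAi and at 400.9 and 128.6 FPKM in water. At all 5 of these loci the water libraries differed as well, by 1.60 to 1.81 on the log2 scale. The BMP and water libraries overlapped at each of them.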

How the data were processed

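Poly-A RNA of pooled embryos was sequenced. Per the labels, the authors used TopHat2 2.0.3 and Cufflinks 2.0.2, with Cuffdiff, against assembly 1.0 and annotation 2.0. The table the authors deposited holds expected counts of fragments per locus and library, unscaled, and FPKM, which the authors' run scaled for library size and transcript length. Library order follows the authors' printed command. These were rounded to whole numbers and compared with edgeR 4.0.16 in R 4.3.3 (TMM, default filter, quasi-likelihood test, a mean per condition, all 6 libraries), with Benjamini-Hochberg adjustment and a threshold of 0.05. The SE is the absolute log2 fold change over the square root of F. Each ligand library was set against the mean of water on TMM-scaled log2 CPM with a prior count of 1. Pools are the replicates, 2 per group, so p-values measure the spread between these pools. In the BMP and Toll groups that spread includes any difference between the dsRNAs. The test was checked on simulated data with the same dispersion at every locus and no difference between ligands or batches. That check therefore does not cover these features of the real libraries.

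Gene identifiers came from the study's supplement, of which part was used here, and a locus can hold several. Members and lists were chosen with earlier results of these data known. Named genes were the target, the transcription regulators, signaling components and extremes of the dorsal, dorsolateral, anteroposterior and BMP pathway lists, the 10 largest changes in each direction (adjusted p below 0.05, over 3 FPKM in the higher group, no overlap), the 5 largest ligand ratios in each direction (over 10 FPKM) and the markers *Nv-vnd*, *Nv-sim*, *Nv-sna* and *Nv-twi*. *Nv-wee1*, Nasvi2EG019528, Nasvi2EG008141 and *Nv-ltl* among fly orthologs were singled out after their values were seen. Alternatives were RLE, DESeq2 1.42.0, other filters, limma 3.58.1 on log2(FPKM + 1) or log2(FPKM + 0.1), other groupings and leaving out each library. Promoter motifs, though planned, were not analysed here.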

Additional observations from a re-analysis of the deposited data

How the results depend on the processing

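No paired analysis was possible because the BMP and water libraries share no number in their titles. The first value is for loci lower and the second for loci higher, with 357 and 211 as reported: DESeq2 gave 852 and 499, no filter on low counts 1217 and 836, the ligands as groups of their own 1360 and 1076, only the BMP and water libraries 136 and 26, limma on log2(FPKM + 1) 151 and 103, the same without a filter 16 and 27, and limma on log2(FPKM + 0.1) 225 lower. By the study's 3 criteria (adjusted p below 0.05, over 1.5-fold, over 3 FPKM in water), 150 were lower and 52 higher, and these settings gave 244 and 88 without a filter, 239 and 80 with the ligands apart, 90 and 18 with only the BMP and water libraries, 86 and 33 with limma on log2(FPKM + 1), and 13 and 1 without a filter. Limma on log2(FPKM + 1) without a filter left 6 serosa, 3 dorsolateral, 2 anteroposterior and 0 broad lateral genes lower and 0 ventral genes higher. Broad lateral genes lower, 15 as reported, were 6 with only the BMP and water libraries, 7 with limma on log2(FPKM + 1) and 9 on log2(FPKM + 0.1). Ventral genes higher, 8 as reported, were 15 with the ligands apart, and 3 and 4 with limma on these scales. Leaving out each library in turn gave 84 to 1401 lower and 6 to 1227 higher loci, 61 to 475 and 5 to 194 by the 3 criteria, 3 to 18 broad lateral genes lower and 2 to 12 ventral genes higher, where a lone library was assumed to vary like the others. Leaving out a library also gave 20 to 27 serosa, 7 to 8 dorsolateral and 8 to 10 anteroposterior genes lower. RLE, at least 10 counts in every library and, chosen after seeing the data, leaving out loci with a failed estimate kept every one of these counts within 1.5 times. Over the 62 loci of the serosa, broad dorsal, dorsolateral, anteroposterior and BMP pathway lists, the 10 largest changes in each direction, *Nv-sna* and *Nv-sim*, 58 were called, and 13 of these stayed called under every alternative. Leaving out water replicate 1 ended the call of 14 of these loci and water replicate 2 of 17. Nasvi2EG029763, not called at 0.63, ranged from -0.49 to 1.87 when a library was left out. The causes were not tested.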
